A study of Mus musculus with 4 samples.

Results

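The replication-dependent histone genes were followed in chromatin profiles made with a Ruvbl2 antibody in mouse haematopoietic and leukaemia stem cells. Members were protein-coding genes of the mm10 gene table with the symbols H1f1 to H1f5 or with the prefixes H2ac, H2bc, H3c and H4c and a number. This gave 63 of 21839 protein-coding genes, 62 by current symbol and 1, H4f16, by a synonym. They comprised 5 H1, 17 H2A, 16 H2B, 12 H3 and 13 H4 genes, of which 52 lay on chromosome 13, 10 on chromosome 3 and 1 (H4f16) on chromosome 6. No gene of the chromosome 11 histone cluster carried a name of this form.

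Replication-dependent histone genes are transcribed in S phase, when new DNA has to be packed into nucleosomes. Most lack introns, and their mRNAs end in a stem-loop bound by Slbp instead of a poly(A) tail. The clusters are gathered in the nucleus in histone locus bodies, where the coactivator Npat, the target of cyclin E and Cdk2, drives transcription. H2A and H2B genes often sit head to head and share a promoter. Ruvbl2 is an ATPase of the INO80, SRCAP and TIP60/p400 complexes, which move or exchange nucleosomes or acetylate histones.

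CUT&Tag directs a transposase to an antibody target and sequences the DNA it cuts. HSC, gated as CD48-CD150+LSK, came from bone marrow of Nup214fl/+ mice, with 2 libraries. LSC, gated as c-Kit+, CD34+ and CD16/32+ cells without Sca-1 or lineage markers, came from Nup214fl/+ mice with MLL-AF9-driven leukaemia, also with 2. The cell type field of the labels reads haematopoietic stem cell for all 4, and only titles and the sorting text set the LSC apart. All libraries thus carried 1 floxed Nup214 allele, and no Cre is named. MLL-AF9, a leukaemic fusion, came together with a different sort gate, and the contributions of fusion and gate cannot be told apart. The labels do not say whether the libraries of a group came from separate animals, so the spread between them may be technical. They name a goat anti-rabbit secondary antibody and no control library, and the dependence of the peaks on Ruvbl2 was not tested. The lists held 161655 to 286107 peaks per library, sequencing depth is unknown, and peak names shared 1 prefix style in the replicate 1 libraries and another in the replicate 2 libraries. A gene was called listed in a library when 1 of its 20000 strongest peaks overlapped the gene body or 1 kb on either side. Of the sorting and stage genes, 1 of 7 HSC genes (Mecom) and 1 of 7 granulocyte-monocyte genes (Ctsg) were listed in all 4 libraries, as was Cd4 among 3 T and NK genes. B, erythroid and stromal genes gave 0 of 3 each.

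Nearly all histone genes carried a strong peak in both replicate 2 libraries, and many fewer did in the replicate 1 libraries. In HSC replicate 1, 41 of 63 histone genes (65.1%) were listed, beside 30.2% of all protein-coding genes. HSC replicate 2 listed 59 (93.7%), beside 41.3%. In LSC replicate 1 there were 29 (46%), beside 32.4%, and in LSC replicate 2 there were 57 (90.5%), beside 41.2%. All 4 libraries thus held a larger share of histone genes than of genes in general, by the smallest margin in LSC replicate 1. Both replicate 2 libraries listed 56 histone genes (88.9%), beside 28.8% of all genes, while both replicate 1 libraries listed 23 (36.5%), beside 17.4%.

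**Figure D1:**
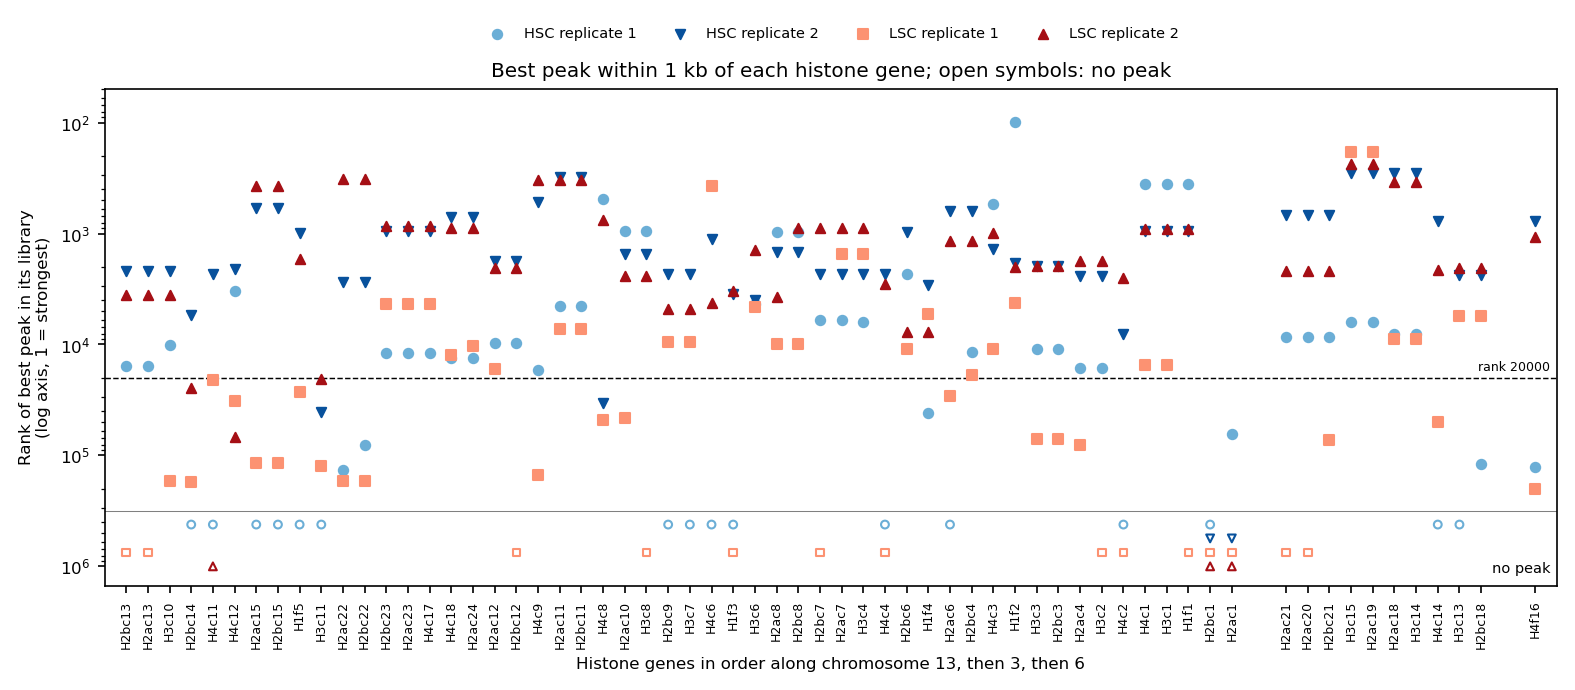
Rank of the best peak of each histone gene (vertical log axis, strongest at the top) in the 2 HSC and 2 LSC libraries, with genes in order along chromosomes 13, 3 and 6 and the dashed line at rank 20000. Open symbols at the foot mark a library without any peak there. The replicate 2 libraries (dark triangles) lie above the line at 59 and 57 of 63 genes, and the pair H2bc1 and H2ac1 lies below it in every library.

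The peaks at histone genes were also high in the ranking of the replicate 2 libraries. The median rank of the best peak at a listed histone gene was 1463 in HSC replicate 2 and 1414 in LSC replicate 2, where listed genes in general had medians of 5608 and 5531.5. In HSC replicate 1 and LSC replicate 1 it was 8117 and 7317, close to the 7195.5 and 7067.5 of listed genes in general. Among the 5000 strongest peaks of a library, histone genes were hit in 57 and 55 of 63 cases in the HSC and LSC replicate 2 libraries (90.5% and 87.3%, beside 19.2% and 19.3% of all genes). The corresponding values in the replicate 1 libraries were 15 and 10 (23.8% and 15.9%, beside 11.6% and 12.4%). Around the edge of the list in HSC replicate 2, H4c2 was the last gene inside at rank 8073 and H4c8 the first outside at 33953. In LSC replicate 1, H2bc4 stood inside at 18690 and H4c11 outside at 20928, and 20 histone genes had only weaker peaks. No peak of any strength was found at 16 and 2 histone genes in HSC replicate 1 and replicate 2, and at 14 and 3 in LSC.

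In all 4 libraries together, 23 of 63 histone genes (36.5%) were listed, beside 11.3% of all protein-coding genes. Without LSC replicate 1 the count rose to 39, beside 16% of all genes, so this library set it. Of the other members, 22 were listed in 3 libraries, 13 in 2, 2 in 1 and 3 in none. Histone genes are short, so their windows are small. Among protein-coding genes of at most 1000 bp, 1.41% were listed in all 4 libraries, that is 22 of 1564 genes, 971 of which are olfactory, vomeronasal or trace amine receptor genes. Short genes that were neither histone members nor such receptors reached this in 2 of 535 cases (0.374%). With the full lists instead of the strongest 20000 peaks, histone genes did not stand above genes in general: 37 of 63 (58.7%) had a peak of any strength in all 4 libraries, beside 61.4% of all genes, whose windows are mostly far longer. When only the 1 kb around gene ends was used with the full lists, so that windows were of like size, the count was 36 and the share of all genes 15.6%.

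Neighbouring histone genes share peaks, so the 23 genes rested on 17 distinct sets of best peaks. Their 4 best peaks had at least 1 base in common at 14 of the 23 genes, and the distance between the outermost summits had a median of 1205 bp. With the summit inside the window instead of any overlap, 14 of the 23 stayed listed in all 4 libraries, beside 11% of all genes. Merging listed peaks across libraries gave 48 regions at histone genes, of which 11 (22.9%) were found in all 4 libraries and 14 (29.2%) in a single one. Merging chains overlapping peaks, so libraries in a region need not share a base. The H1f2 and H3c6 regions are among the 11, although their best peaks had no base common to all 4. Over the genome 1.15% of 68904 regions were found in all 4 and 89.5% in a single library. The regions at histone genes were longer, with a median of 1830 bp beside 534 bp.

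Some histone genes have near-identical copies, and how multiply mapping reads were placed is not given in the sources used here. The promoter windows of 11 members shared a run of at least 50 identical bases with that of another member elsewhere. The longest were 285 bases between H4c17 and H4c18, 233 between H2bc23 and H2ac24, 231 between H3c14 and H3c15, and 219 between H2ac18 and H2ac19. Of these 11 genes, 9 were listed in all 4 libraries (81.8%), and of the other 52 members 14 were (26.9%). Values at the 11 copies are therefore uncertain as to which copy they belong to. The other 52 include 5 members without a promoter window (H3c7, H2bc4, H3c1, H2bc21 and H4c14), for which copies were not looked for. Of these 5, H2bc4 and H3c1 were listed in all 4 libraries.

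**Figure D2:**
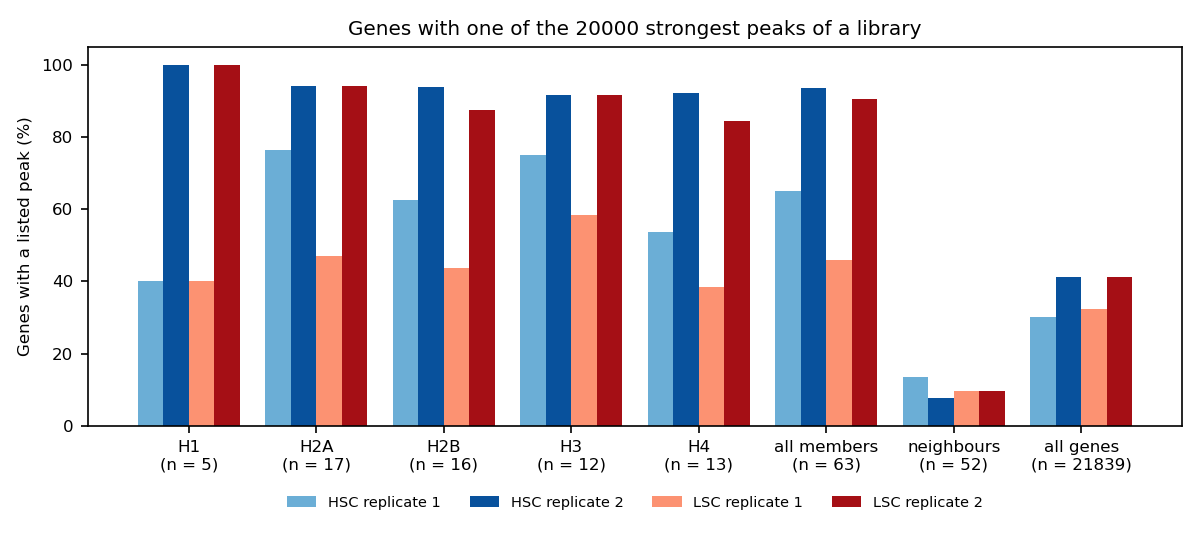
Share of genes (%) with a listed peak in each of the 4 libraries, by histone type, for all members, for the 52 other protein-coding genes within the clusters, and for all protein-coding genes. Each bar is a single library, without error bars. Every histone type exceeds 80% in both replicate 2 libraries. The neighbours, 36 of which are olfactory or vomeronasal receptor genes, stay under 15% in each library, while the other 16 reach 25% to 37.5%. Those 16 include H4bc24 and H1f6, histone genes that are no members.

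The H1 genes encode linker histones, which bind DNA between nucleosomes. All 5 were listed in both replicate 2 libraries, but H1f2 alone was listed in all 4. Ranks are given from here on in the order of the first HSC, second HSC, first LSC and second LSC library. At H1f2 (chromosome 13, 23738807 to 23739531) the best peak ranked 99, 1829, 4249 and 1988. The authors' fold enrichment, a peak's value within its own library, was 124, 25.8, 63.1 and 38.1. The replicate 2 peaks covered the gene start, whereas the replicate 1 peaks (23739622 to 23739917 in HSC, 23739684 to 23740823 in LSC) lay just past the 3′ end. H1f4 ranked 41262, 2925, 5359 and 7684, so that HSC replicate 1 alone fell outside the list. H1f1 ranked 361, 940 and 911 in HSC replicates 1 and 2 and LSC replicate 2 and had no peak in LSC replicate 1; those peaks spanned the adjacent H3c1. H1f5 (995 and 1687) and H1f3 (3524 and 3295) were listed in the replicate 2 libraries, with no peak in HSC replicate 1.

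The H2A and H2B genes encode the H2A-H2B dimers, which complete the nucleosome core around the H3-H4 tetramer. Of 17 H2A genes, 13, 16, 8 and 16 were listed, and 8 in all 4. H2B genes gave 10, 15, 7 and 14 of 16, and 5 in all 4. The head-to-head pair H2ac11 and H2bc11 (chromosome 13, 22042478 to 22043658) shared its best peak, with ranks of 4475, 307, 7317 and 328 and folds of 42.4, 52.6, 48.7 and 74.1. H2ac8 and H2bc8, another such pair, shared peaks at 970, 1463 and 9855; in LSC replicate 2 H2ac8 ranked 3718, and H2bc8 reached 890 through a peak nearer H2bc7. H2bc23, H2ac23 and H4c17 shared their best peak in each library, at ranks of 11839, 956, 4316 and 855. In HSC replicate 1 this peak was 354 bp wide and overlapped H2ac23 alone. It reached H2bc23 and H4c17 there only in their 1 kb flanks. H2bc6 has a long annotation, from 23583670 to 23621124 on chromosome 13, and its peaks lay at the inner of its 2 RefSeq starts. There the ranks were 2333, 968, 11103 and 7683, and the 4 summits fell within 30 bp of each other, the tightest spacing among the 23 genes. H2bc4, also with a long annotation (8282 bp), had its replicate 2 peaks at the end next to H2ac6 and its replicate 1 peaks towards the other end, with 8026 bp between the outermost summits.

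The H3 and H4 genes encode that tetramer. Of 12 H3 genes 9, 11, 7 and 11 were listed, and 5 in all 4; of 13 H4 genes 7, 12, 5 and 11 were listed, and 4 in all 4. H3c6 (chromosome 13, 23561475 to 23562385) had ranks of 4289, 4000, 4610 and 1414. They came from peaks without a base common to all 4, with summits at 28 and 257 bp from the start in HSC and at -941 and -906 bp (upstream) in LSC. H3c4 and H2ac7 had the same best peak in 3 libraries, at ranks 2307, 1537 and 890, and separate ones in HSC replicate 1, at 6333 for H3c4 and 6059 for H2ac7. These were different places: the peak of LSC replicate 1 (23575714 to 23576043) overlapped that of HSC replicate 1 at H3c4, and neither replicate 2 peak reached it. H4c3 (chromosome 13, 23698084 to 23698458) ranked 537, 1381, 11006 and 984, with folds of 67.5, 28.6, 38.4 and 50.0. H4c1 and H3c1 shared a peak at 361, 940, 15310 and 911. Ranks in LSC replicate 1 were the weakest of the 4 at H4c3, H4c1 and H3c1.

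By position, the large chromosome 13 block from H4c8 to H1f1 (23531044 to 23764412) held 28 members, of which 20, 27, 15 and 28 were listed, and 11 in all 4. The block from H2bc13 to H2ac24 (21715711 to 21833475) had 9, 16, 5 and 13 of 17, and 5 in all 4. In the small block from H2ac12 to H2bc11, 3 of 5 members were listed in all 4 libraries. On chromosome 3 (96219885 to 96270192), 7, 10, 6 and 10 of 10 members were listed and 4 in all 4. The strongest site there, the best peak of both H3c15 and H2ac19, had ranks of 6253, 284, 183 and 238 and folds of 38.5, 54.6, 151 and 82.6. It covered H2ac19 in every library. H3c15 itself was overlapped in HSC replicate 2 alone, and elsewhere the peak began just upstream of its start. Its near-copy at H2ac18 and H3c14 ranked 8117, 285, 9018 and 346. Both copies were thus alike in 3 libraries and far apart in LSC replicate 1. H2B and H4 on chromosome 3 had no member listed in all 4: H2bc18 was listed in all but HSC replicate 1 (2371, 5581 and 2026), H2bc21 in all but LSC replicate 1 (8595, 677 and 2175), and H4c14 in the replicate 2 libraries (773 and 2114). H4f16 on chromosome 6 was listed in the replicate 2 libraries (775 and 1073), with weak peaks at ranks 126025 and 202764 in HSC and LSC replicate 1.

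Members outside every list were H3c11, H2bc1 and H2ac1. H2bc1 and H2ac1 form the testis-specific H2B and H2A pair, which replaces the common forms in male germ cells. H2bc1 was the only member without a peak of any strength in all 4 lists, and H2ac1 had a single weak peak, at rank 63775 in HSC replicate 1. H3c11 had weak peaks in 3 libraries, the best at rank 20369 in LSC replicate 2. The 2 testis genes stand apart from the rest of the cluster, over 100 kb beyond H1f1. Other protein-coding genes within the clusters, 52 in all and 36 of them olfactory or vomeronasal receptor genes, were listed in 7, 4, 5 and 5 cases in the 4 libraries. The 16 that are no such receptors were listed at 37.5%, 25%, 31.2% and 31.2%, beside 30.2%, 41.3%, 32.4% and 41.2% of all genes. The single neighbour listed in all 4 was H4bc24, which had the best peak of H2ac24 in every library but HSC replicate 1 (rank 11442). H4bc24 itself carries a histone name, outside the form used for members, and so does H1f6, listed in the replicate 2 libraries. The neighbours are thus not a background free of histone genes.

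Promoter sequences of a few members follow. These stretches, from RefSeq on GRCm38.p6, are the DNA between the starts of H2ac11 and H2bc11 (chr13:22042950-22043197, plus strand), between those of H2ac8 and H2bc8 (chr13:23571221-23571399, plus strand), and upstream of the inner start of H2bc6 (chr13:23585971-23586220, minus strand), of H4c3 (chr13:23698459-23698708, minus strand) and of H1f2 (chr13:23738557-23738806, plus strand). They were chosen because each gene was listed in all 4 libraries and they show the elements of different histone types; the testis pair H2bc1 and H2ac1 (chr13:23934187-23934436, plus strand), listed in none, is given for contrast. Capitals mark, on either strand, the CCAAT box, the TATA box (letters TATAAA), the octamer read by Pou2f1 (letters ATTTGCAT) and the H1 box (letters AAACACA). They also mark the core read by the H4 factor Hinfp (letters GTCCGC) and an E2F element (letters TTTCGCGC).
H2ac11/H2bc11: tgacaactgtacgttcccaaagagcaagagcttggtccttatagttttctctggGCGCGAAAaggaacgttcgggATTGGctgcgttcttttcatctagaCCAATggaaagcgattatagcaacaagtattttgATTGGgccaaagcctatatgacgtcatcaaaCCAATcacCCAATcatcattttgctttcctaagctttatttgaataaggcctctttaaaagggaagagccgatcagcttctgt
H2ac8/H2bc8: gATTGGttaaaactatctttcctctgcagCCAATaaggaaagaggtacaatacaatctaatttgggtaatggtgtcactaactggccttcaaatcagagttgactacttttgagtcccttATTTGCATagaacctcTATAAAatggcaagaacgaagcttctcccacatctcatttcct
H2bc6: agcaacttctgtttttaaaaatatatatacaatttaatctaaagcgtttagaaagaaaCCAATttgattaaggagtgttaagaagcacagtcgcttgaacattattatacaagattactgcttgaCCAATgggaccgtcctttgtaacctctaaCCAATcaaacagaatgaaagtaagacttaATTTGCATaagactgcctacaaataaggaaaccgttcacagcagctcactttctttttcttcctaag
H4c3: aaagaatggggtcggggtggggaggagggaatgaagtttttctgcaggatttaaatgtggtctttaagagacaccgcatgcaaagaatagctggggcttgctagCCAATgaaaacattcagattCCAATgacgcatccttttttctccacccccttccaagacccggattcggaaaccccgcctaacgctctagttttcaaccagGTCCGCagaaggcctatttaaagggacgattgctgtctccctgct
H1f2: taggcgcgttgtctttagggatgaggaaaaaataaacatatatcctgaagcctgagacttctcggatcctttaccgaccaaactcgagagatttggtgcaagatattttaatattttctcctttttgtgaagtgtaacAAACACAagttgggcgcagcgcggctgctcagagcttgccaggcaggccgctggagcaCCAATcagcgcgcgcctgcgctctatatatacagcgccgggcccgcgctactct
H2bc1/H2ac1: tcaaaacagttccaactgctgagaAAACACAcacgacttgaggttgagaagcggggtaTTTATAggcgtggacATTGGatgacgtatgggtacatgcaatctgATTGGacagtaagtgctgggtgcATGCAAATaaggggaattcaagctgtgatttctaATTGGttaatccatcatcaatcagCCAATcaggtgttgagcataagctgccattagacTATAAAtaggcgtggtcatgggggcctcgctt

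The H2ac11/H2bc11 stretch holds 5 CCAAT elements and an E2F element, and a listed peak covered it in all 4 libraries. At H1f2 listed peaks overlapped the promoter in the replicate 2 libraries only, since the replicate 1 peaks lay past the 3′ end. At H2bc6 the octamer begins 67 bases before the start, and the summits lay at -83, -59, -53 and -56 bases from it. H4c3 has GTCCGC 45 bases before its start, and its summits lay 643, 491, 47 and 348 bases past the start, beyond the 3′ end of this short gene in HSC replicates 1 and 2. The testis pair holds octamer, TATA and CCAAT letters like its relatives and had no listed peak.

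Letters of the known histone promoter elements were common in the family. Promoter windows, 250 bases before to 50 after a start, were given for 58 members (not for H3c7, H2bc4, H3c1, H2bc21 and H4c14). CCAAT or its reverse was found in 49 of 58 (84.5%), in every H1, H2A, H2B and H3 window and in 3 of 12 H4 windows, beside 37.4% of all 32851 windows in the table. TATAAA was in 34 (58.6%), beside 13.6%. The octamer ATTTGCAT was in 6 of 17 H2A and 7 of 14 H2B windows, which overlap where pairs face each other, and in no other type (1.74% of all windows). AAACACA was in 4 of 5 H1 windows and in 2 H2A and 2 H2B windows (7.18% of all windows). GTCCGC was in 9 of 12 H4, 6 of 17 H2A, 3 of 14 H2B and 1 of 10 H3 windows (9.44%). At H2ac15, H2ac23, H2ac8 and H2ac7 it lay 233, 218, 235 and 213 bases before the start. That is inside the facing H2B gene, whose start is only 163, 167, 179 and 173 bases away. At H2bc7 and H2bc6 it lay past the start, so these hits are not promoter elements by position. TTTCGCGC was in 5 H2A and 4 H2B windows (0.323%), while TTTGGCGC was in none (0.514%). The 4 H2B windows held the same sites as those of their facing H2A partners. Among members listed in all 4 libraries and the rest, CCAAT was in 19 of 21 and 30 of 37, and TATAAA in 9 of 21 and 25 of 37; these splits are descriptions and were not tested.

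In both replicate 2 libraries and in LSC replicate 1, more histone genes had a listed peak over the start than 1 kb to either side; in HSC replicate 1 cover was as high 1 kb upstream. The promoter window held a listed peak in 22, 50, 19 and 46 of 58 members (37.9%, 86.2%, 32.8% and 79.3%), and in 12 (20.7%) in all 4 libraries, beside 2.08% of 17491 genes. At the start itself 23.7%, 84.7%, 27.1% and 71.2% of 59 histone starts were covered, beside 3.88%, 16.2%, 4.19% and 16.4% of 21262 starts of protein-coding genes. In the replicate 2 libraries cover reached its highest value 50 and 100 bp past the start, 86.4% in HSC and 74.6% in LSC, and was 11.9% and 15.3% at 3000 bp upstream. At 1000 bp upstream and downstream it was 44.1% and 49.2% in HSC replicate 2 and 47.5% and 40.7% in LSC replicate 2. The values there were 15.3% and 10.2% in LSC replicate 1 and 23.7% and 11.9% in HSC replicate 1, where cover was highest, at 27.1%, 250 bp before the start. In HSC and LSC replicate 2 the peaks at histone genes were wide, with median widths of 1898 and 1562 bp, beside 714 and 634 bp for all listed peaks. In the replicate 1 libraries the medians were 554 and 669 bp, beside 484 and 371 bp. Summits were less exact than cover. Of 38, 54, 26 and 52 listed members with a known strand, 26.3%, 51.9%, 46.2% and 40.4% had their best summit within 250 bp of the start. A shared peak was counted at each of its genes here. Among 9 head-to-head pairs with 163 to 280 bp between their starts, a listed peak overlapped that stretch in 4, 8, 3 and 8 pairs and in all 4 libraries in 3, but its summit fell inside the stretch in 1 pair per library.

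**Figure D3:**
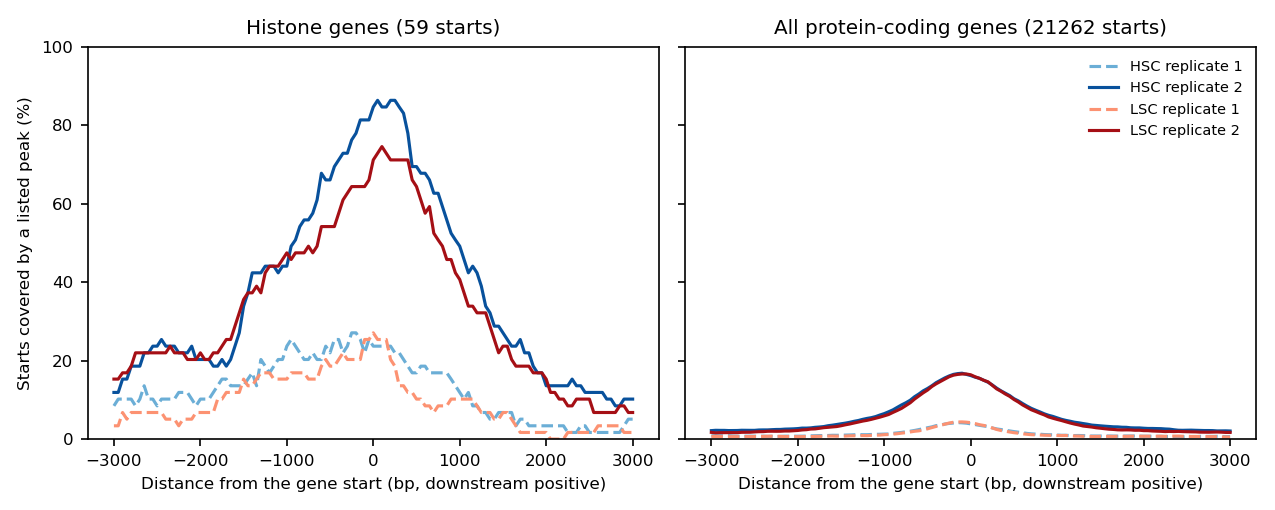
Share of gene starts (%) covered by a listed peak at each distance (bp, downstream positive) from the start, for 59 histone starts (left) and 21262 starts of protein-coding genes (right); each line is a library. Over histone starts the replicate 2 libraries reach 86.4% and 74.6%, and the replicate 1 libraries stay at or under 27.1%.

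HSC and LSC were then compared, which is the contrast the design is built on. No difference between the cell types was shown for the histone genes. The mean number of listed histone genes was 50 in HSC and 43 in LSC, a difference of -7. In an exact two-sided permutation test over the libraries p was 0.667, and with 2 libraries against 2 the smallest possible p is 1 in 3. The difference was -12 at replicate 1 and -2 at replicate 2, so most of it came from the replicate 1 libraries. Leaving out HSC replicate 2 or LSC replicate 1 turned it to 2 and 7.

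**Figure D4:**
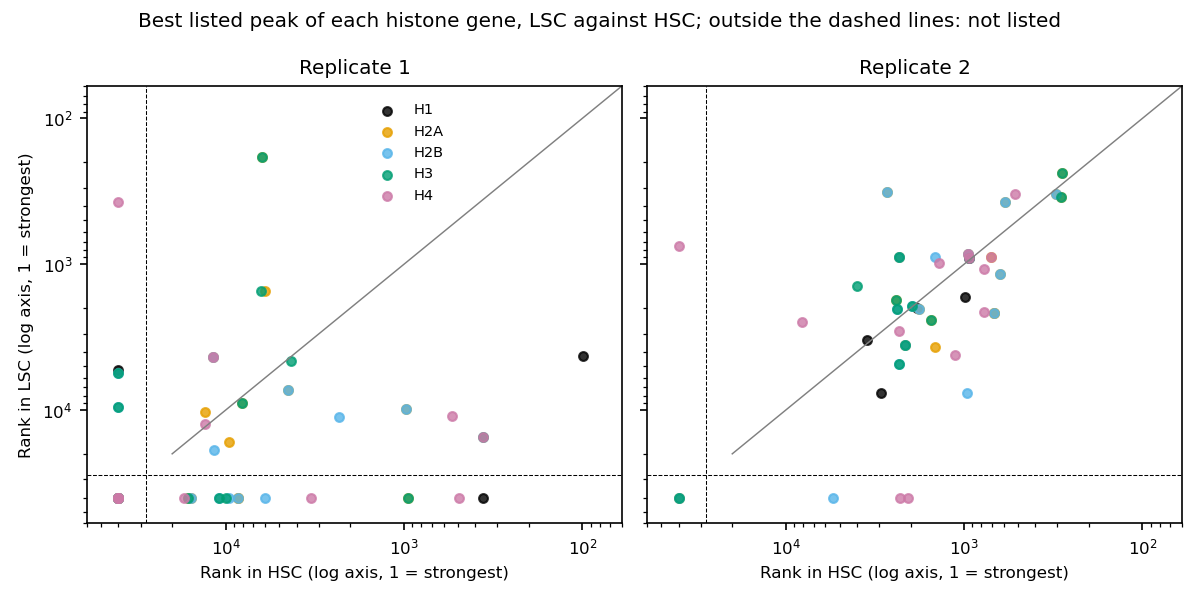
Rank of the best listed peak of each histone gene in LSC (vertical) against HSC (horizontal), log axes with the strongest at the top and right, for replicate 1 and replicate 2, coloured by histone type. Points outside the dashed lines were not listed, and neighbouring genes that share peaks fall on each other. At replicate 2, 56 of 63 genes are listed in both cell types; at replicate 1, 23 are.

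Within replicate 2, 56 genes were listed in both cell types, with the better rank in LSC at 25 and in HSC at 29. Within replicate 1, 23 were listed in both, with the better rank in LSC at 9 and in HSC at 14; 18 were listed in HSC alone and 6 in LSC alone. A gene was said to rank higher in a cell type when its peaks in both libraries of that type ranked before those in both libraries of the other. In LSC 4 histone genes did so (6.35%), beside 5.73% of all genes, and in HSC 6 did (9.52%), beside 5.58%. The LSC count is near the share of genes in general. With 3 libraries the rule is easier to meet for every gene, so counts with a library left out are read against all genes under the same rule. The LSC count was 21 (33.3%) without LSC replicate 1, beside 22.1% of all genes, and 15 (23.8%) without HSC replicate 2, beside 12.6%. The HSC count was 31 (49.2%) without HSC replicate 1, beside 22.1%, and 31 without LSC replicate 2, beside 11.5%. Without HSC replicate 2 it was 11 (17.5%), beside 15.4%. The 4 LSC genes rested on shared peaks, so they are not 4 separate sites. H3c15 and H2ac19 had the same best peak in each library, and these peaks overlapped in all 4 libraries. Their site has a near-copy at H2ac18 and H3c14. H2ac7 and H3c4 had the same best peak in 3 libraries, and their ranks compare the different places described above.

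The 6 genes higher in HSC were H4c12, H2ac10, H3c8, H2ac8, H2bc6 and H1f2. At H1f2 too the ranks compare different places, since the best peaks had no base common to all libraries. Its ranks in the replicate 2 libraries were close, at 1829 in HSC and 1988 in LSC. H4c12 (chromosome 13, 21750145 to 21750553) had ranks of 3311 and 2070 in HSC and of 32075 and 67967 in LSC. Its folds were 45.9 and 24.7 in HSC and 22.9 and 10.8 in LSC. It was the only member listed in both libraries of a single cell type alone (1.59%). Of all genes, 2.1% were listed in this way in HSC alone and 2.36% in LSC alone. H4c12 is among the near-identical copies, sharing a run of 72 bases with H4c11. H2ac10 and H3c8 shared a peak ranked 945 and 1530 in HSC and 2435 in LSC replicate 2; in LSC replicate 1 H2ac10 ranked 45881 and H3c8 had no peak. H2ac8 ranked 970 and 1463 in HSC and 9855 and 3718 in LSC. The rule itself requires that the cell types do not overlap in rank at any of the 6 genes, and single genes were not tested.

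Among 33 genes that regulate, process and chaperone histones, 8, 20, 13 and 23 were listed, and 4 (12.1%) in all 4 libraries, near the 11.3% of all genes. Those 4 were Hinfp, which binds H4 promoters, Pou2f1, which binds the octamer, Yy1, a zinc finger factor, and Nfya, a subunit of the CCAAT-binding factor. Other promoter factors were listed in fewer libraries: Nfyc in 3, E2f1 in 2, and Nfyb and E2f4 in 0. At Nfya ranks were 14595, 692, 3912 and 343. Npat itself was listed in the replicate 2 libraries (1544 and 2462) and not in HSC replicate 1 (73942) or LSC replicate 1 (no peak). Slbp ranked 184 and 392 in the replicate 2 libraries, 60546 in LSC replicate 1 and no peak in HSC replicate 1. Listed in no library were Lsm10 (part of the U7 particle that cuts histone mRNA), Ncbp2 (a cap-binding protein), Cstf2 (an RNA 3′ end factor), E2f4 and Nfyb.

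Genes taken as replication-independent, a list of variant and germ cell histone genes, were listed in 2, 9, 7 and 7 of 15 cases. These are 13.3%, 60%, 46.7% and 46.7%, beside 30.2%, 41.3%, 32.4% and 41.2% of all genes. In all 4 libraries 1 was listed (6.67%, beside 11.3% of all genes), H2ax, at ranks of 13083, 10561, 11073 and 2005. H3f3b ranked 412 and 790 in the replicate 2 libraries and 100456 and 32660 in HSC and LSC replicate 1. H2az1, the variant that SRCAP and p400 deposit, ranked 22303, 10951 and 2984 in HSC replicate 2 and LSC replicates 1 and 2 and had no peak in HSC replicate 1. H2az1 and H3f3a ranked higher in both LSC libraries by the rule above (13.3% of 15 genes, beside 5.73% of all genes). No variant gene did so in HSC, beside 5.58% of all genes. With so few genes no preference can be read from these counts, and none was tested. On chromosome 11, of H2bu2, H2aw and H3f4, H2aw alone was listed, in both HSC libraries (15352 and 8426), with ranks of 28865 and 27977 in LSC.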

How the data were processed

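The authors deposited 4 peak lists, each from its own library. Per the submitters' processing notes, FastQC 0.11.5, Bowtie2 2.2.9, MACS2 and ChIPseeker were used with mm10; for thresholds, multiply mapping reads and duplicates nothing is given in the sources used here. The score deposited for a peak was 10 times its −log10 q-value without decimals; by the usual layout of such lists, the deposited fold is a ratio of summit signal to the background of the same library, beside a summit position; the deposited −log10 p and −log10 q test that signal. These values are the authors' and were used only to rank peaks within a library. No read totals are in the lists, so no interval for depth was computed.

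After leaving out scaffolds, each library's peaks were ranked by −log10 p, and the 20000 strongest of each library were taken. Gene windows came from RefSeq on GRCm38.p6 (the coordinates of mm10), after leaving out genes on other scaffolds. Groups and replicate numbers came from sample titles. The count difference was tested with an exact permutation test; other counts are read against all protein-coding genes. Alternatives changed list length, ranking, overlap, window and libraries. The named genes were all H1 members, the 12 with the best worst rank in all 4 libraries, the best of each type per cluster, those higher in 1 cell type, those outside the clusters, and those without peaks; other members are named where a site or block is described. Members and lists were chosen with earlier results of these data known; blocks, short genes, copies, promoter windows and head-to-head pairs were added after the data were seen. The calls were run on simulated lists with planted peaks stronger than all others. Those lists were shorter than 20000 peaks, so this did not test the list limit, shared peaks or copies. Python 3.11.15, pandas 2.3.3 and numpy 2.4.6 were used.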

Additional observations from a re-analysis of the deposited data

How the results depend on the processing

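The count of histone genes listed in all 4 libraries, 23, was 37 with the full lists (61.4% of all genes), 12 with the 10000 strongest peaks (4.84% of all genes), 14 with the summit in the window (11% of all genes), 12 with the gene body without flanks (9.56% of all genes), 12 in promoter windows (2.08% of all genes; chosen after seeing the data), and 17 with shared peaks counted once. It was 23 to 39 with a library left out (13.3% to 16.9% of all genes), highest without LSC replicate 1. Without flanks 22 had a peak of any strength in all 4 (56.7% of all genes), and 37 to 48 did with a library left out (62.7% to 70% of all genes). Genes higher in LSC numbered 1 without flanks (5.37% of all genes) and 4 to 21 with a library left out, while all genes gave 8.65% to 22.1%. Genes higher in HSC numbered 10 with 50% overlap (5.56% of all genes) and 6 to 31 with a library left out, while all genes gave 8.61% to 22.1%. The difference of LSC minus HSC in listed genes turned to 0.5 with the full lists and ranged from -21 to 7 with a library left out. With the replicate number as a block it stayed -7 (exact p = 0.5, the smallest possible); the numbers pair the libraries by label only, although deviations of same-numbered libraries from their group means correlated at 0.32 across genes. Gene and subgroup values gave 680 comparisons, of which 59 changed by more than 1.5 times or to or from 0, and 621 did not. Depth is unknown, so an unlisted gene is not shown to lack signal.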

Other observations

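H1f6, the testis form of H1, lies beside H4c3 and was listed in both replicate 2 libraries at ranks 1381 and 984, the ranks of the H4c3 peak itself, with no peak in either replicate 1 library. Prss16, a protease gene between 2 of the chromosome 13 blocks, was the neighbour with the next most listings, at ranks 2554, 4609 and 820 in HSC replicate 2 and LSC replicates 1 and 2. At H4c6 the strongest H4 peak of LSC replicate 1 was found, with rank 372 and a fold of 118, beside 1119 in HSC replicate 2, 4224 in LSC replicate 2 and no peak in HSC replicate 1. Its summit lay at -701 bp (upstream), and it had no base in common with the LSC replicate 2 peak, so these ranks compare different places. At H4c8 ranks were 490 in HSC replicate 1 and 753 in LSC replicate 2, but 33953 and 47643 in HSC replicate 2 and LSC replicate 1. It was the only member listed in 1 library of each cell type and of each replicate number. These genes were named after their values were seen.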
